A study of Homo sapiens with 24 samples.

Results

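The response of A549 cells to an extract of Bupleurum chinense (B. chinense) was measured by comparing 3 treated with 3 control libraries, 6 of the 24 libraries of the series. Of the 14585 genes in the count table, the 13461 with a mean count above 5 over these 6 libraries were compared. The study asked which herbs act on lung and liver cancer cells and which changes in transcription go with that action. A549, a cell line from a human lung adenocarcinoma, has wild-type p53, and the labels give the treated cells as WT lung carcinoma cells that received B. chinense extract and the control cells as WT cells of the same line. The extract was made with ethanol, and the sources used here give neither its dose and time for the sequenced cells nor whether the control cells received the solvent. Total RNA was sequenced after removal of ribosomal RNA, which keeps the histone mRNAs that lack a poly(A) tail. The same design held A549 cells treated with extracts of Pulsatilla chinensis (P. chinensis) or Polyporus umbellatus (P. umbellatus), and the same 4 groups in Huh7, a human hepatocellular carcinoma line with mutant p53.

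The tumour suppressor p53 is a transcription factor that is kept low by the ubiquitin ligase MDM2 and that switches on genes for arrest of the cell cycle, DNA repair and apoptosis. Its best known target, CDKN1A, encodes the inhibitor p21, which blocks cyclin-dependent kinases. When those kinases are blocked, the RB family of proteins stays bound to E2F factors, and the genes for S phase and mitosis are turned down through E2F sites and, for many mitotic genes, through a promoter element called the CHR.

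The 6 libraries held between 6803704 and 10616955 estimated counts. The squared differences between replicates of a group had a median of 3.02 to 3.57 times that of sampling alone, so the errors given below come from the spread between libraries. On the leading principal component, which held 41.5% of the variance, the treated libraries lay between -30.57 and -27.3 and the control libraries between 25.12 and 35.92. B. chinense replicate 3, the shallowest library, stood apart on the next component at -36.62. The keratin genes KRT7, KRT8 and KRT18 were high in all 6 libraries. The summed level of 12 lung and A549 markers ran from 18340 to 18550 CPM (counts scaled to a common library size after TMM normalization) in treated and from 18680 to 19360 in control cells. Within that sum ALDH1A1 was at 3240 to 3500 CPM in treated and 4950 to 5340 CPM in control cells, and ALDH3A1 at 3440 to 3700 against 1310 to 1320 CPM. EPCAM, at 0.432 to 3.2 CPM in treated and 2.98 to 5.4 CPM in control cells, was low. So was the type II cell gene SFTPB, at 1.33 to 2.7 CPM and 1.13 to 1.44 CPM. The other listed lung markers, SFTPC, NKX2-1 and NAPSA, were absent from the count table. Summed hepatocyte markers were 99.43 to 110.8 CPM in treated and 174.5 to 186.6 CPM in control cells. HNF4A was the largest part, at 48.4 to 53.8 CPM in treated and 110 to 123 CPM in control cells, while ALB and APOA2 were at or near 0 counts. Summed markers lay between 7.457 and 10.3 CPM for fibroblasts, between 1.324 and 1.925 CPM for endothelium, and at 23.09 to 29.42 CPM in treated against 19.26 to 22.18 CPM in control cells for immune cells. The part of these marker sums in the results was not tested.

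B. chinense changed 3816 genes, 28.3% of those tested. Among these, 1862 rose, 13.8% of all genes tested, and 1954 fell, 14.5% of all genes tested, by the quasi-likelihood test of edgeR at a Benjamini-Hochberg adjusted p below 0.05. The typical change was moderate, with a median log2 fold change of 0.50 among risen and -0.42 among fallen genes and a median standard error (SE) of 0.13 over all genes. Changes of at least 2-fold were found for 349 risen and 270 fallen genes. Under upper quartile normalization the balance moved to 2239 risen and 1539 fallen genes, which took the risen share of the calls from 48.8% to 59.3%, and the median of all genes moved from 0.01 to 0.05 on the log2 scale. With the genes split into 4 bins by mean count, falls were called for 31.1% of genes in the highest bin and 2.11% in the lowest, and rises for 17.2% and 8.7%. Fewer cells of a kind and less RNA per cell cannot be told apart in these bulk libraries.

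**Figure D1:**
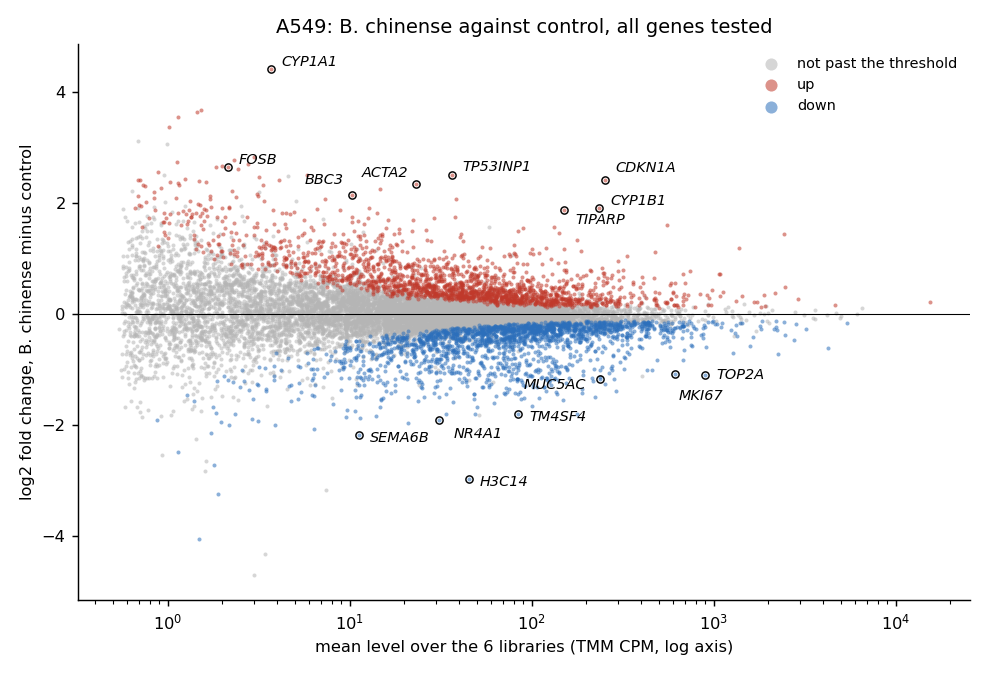
Log2 fold change of B. chinense over control in A549 cells against the mean level of each gene in TMM CPM (log axis), with 1 point for each of the 13461 genes tested and the 1862 risen and 1954 fallen genes coloured. Rises reach above 2 on the log2 scale at low and middle levels, and named genes of the p53, aryl hydrocarbon receptor and cell cycle groups are marked.

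Among genes that control the passage from G1 into S phase, the largest rise was that of the cyclin-dependent kinase inhibitor CDKN1A. CDKN1A (chromosome 6, 36676460 to 36687337, GRCh38) stood at 421, 430 and 424 CPM in the treated libraries against 68.2, 75.4 and 92.9 CPM in control. The groups lay far apart, and the rise was 2.42 ± 0.08 on the log2 scale (SE, n = 3 per group, edgeR adjusted p = 2.8e-10). Of 13 tested G1 cyclins, kinases and inhibitors, 3 rose (23.1%) and 8 fell (61.5%), with a median of -0.43. Over all genes tested 13.8% rose and 14.5% fell. CCND1, the D-type cyclin that starts G1 progression, rose by 0.33 ± 0.04, and CCNE1 by 0.47. CCNA2, the cyclin of S phase and G2, fell by 1.19, the phosphatase gene CDC25A fell by 0.81, and CDK2 fell by 0.80. The inhibitor gene CDKN1B, unlike CDKN1A, fell by 0.67.

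Among 20 E2F and DREAM complex genes, which carry out the E2F switch, 11 fell (55%) and 0 rose, with a median of -0.44. The shares over all genes tested were 14.5% and 13.8%. E2F1, the activator that turns on S phase genes, was at 36.0, 35.0 and 40.2 CPM in treated and 67.7, 72.7 and 77.1 CPM in control libraries. It fell by 0.97 ± 0.09 on the log2 scale (edgeR adjusted p = 2.5e-06). The atypical repressor E2F8 fell by 1.5 and E2F2 by 1.28. MYBL2 (chromosome 20, 43667019 to 43716495), which joins the MuvB core to activate late cell cycle genes, was at 67.8, 72.7 and 84.9 CPM against 167, 175 and 185 CPM and fell by 1.23 ± 0.09. FOXM1, the forkhead factor of the same step, fell by 0.91. The E2F partner TFDP1 fell by 0.47 ± 0.07, at 71.0, 73.4 and 75.6 CPM against 106, 97.9 and 99.6 CPM.

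The machinery of DNA replication fell almost as a whole, with 44 of 46 tested genes lower, 0 higher and a median log2 fold change of -0.95, against 14.5% fallen and a median of 0.01 over all genes tested. All 6 subunits of the MCM2-7 helicase, which unwinds DNA at the fork, fell, and their median was -1.06. MCM2 (chromosome 3, 127598410 to 127622436) was at 86.4, 71.9 and 83.8 CPM in treated and 161, 171 and 173 CPM in control libraries. CDC6 (chromosome 17, 40287879 to 40304657), which loads that helicase at origins, was at 62.8, 65.1 and 77.5 CPM against 139, 140 and 140 CPM. Neither gene's groups overlapped, and the falls were 1.06 ± 0.09 for MCM2 and 1.03 ± 0.09 for CDC6. Of 14 genes for licensing and firing origins, 13 fell, with MCM10 at -1.34, CDC45 at -1.26 and CDT1 at -1.23. All 8 polymerase and primase genes fell, led by PRIM1 at -1.30, which encodes the primase subunit that makes the RNA primer. PCNA, the sliding clamp, fell by 0.39 ± 0.05 and RFC1, of the clamp loader, by 0.32, the smallest falls of the list. The exceptions were the ligase gene LIG1 at -0.59 ± 0.51 and DBF4, the activator of CDC7 kinase, at 0.59 ± 0.50, both with few counts and overlapping groups.

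Genes for mitosis fell by a similar amount. Of 70 tested, 69 fell (98.6%, against 14.5% over all genes tested) and 0 rose, with a median of -1.02. The remaining gene was the phosphatase CDC25B at -0.11 ± 0.06. TOP2A (chromosome 17, 40388525 to 40417896), which untangles chromosomes, was at 576, 545 and 593 CPM in treated and 1241, 1234 and 1215 CPM in control libraries. MKI67 (chromosome 10, 128096659 to 128126423), which coats mitotic chromosomes and encodes the proliferation marker Ki-67, was at 366, 368 and 443 CPM against 850, 834 and 818 CPM. The falls were 1.11 ± 0.07 for TOP2A and 1.09 ± 0.08 for MKI67. CDK1 (chromosome 10, 60778331 to 60794852), the kinase that starts mitosis, was at 75.3, 71.0 and 76.6 CPM against 170, 170 and 167 CPM and fell by 1.18 ± 0.08. Its partner cyclin B1, CCNB1, fell by 0.83 and the kinase gene PLK1 by 1.03. All 15 centromere and kinetochore genes fell (median -1.01), as did all 10 mitotic kinesins (median -1.10), all 7 genes of chromosome structure (median -1.09) and all 6 of the spindle checkpoint and anaphase promoting complex (median -1.07). The largest fall of the list was that of NUSAP1 (chromosome 15, 41320794 to 41381050), a spindle protein, with 24.9, 26.0 and 26.8 CPM against 83.4, 69.1 and 59.6 CPM and a change of -1.45 ± 0.13. The separase gene ESPL1 (chromosome 12, 53268299 to 53293638), whose product cuts cohesin, was at 40.8, 33.6 and 25.0 CPM against 87.3, 75.6 and 87.9 CPM.

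The promoters of these genes were read for shared elements. RefSeq promoter windows of 300 bases (250 before and 50 after the start, GRCh38.p14) were found for 10938 of the tested genes. The CHR was searched as TTTGAA or TTTAAA and the CCAAT box as CCAAT, both on either strand. Matches of the pair shared bases in 53 of the 27305 promoters of the table and in 2 mitosis promoters. A CHR match stood in 48 of 60 mitosis promoters (80%), against 16.2% of all tested genes and 24.3% of all promoters. In the DNA replication list it stood in 1 of 38 promoters (2.63%). A CCAAT box stood in 76.7% of the mitosis promoters and 36.6% of the tested genes. The 3 mitosis genes with the largest falls are given here over the 250 bases before their RefSeq start, with CHR and CCAAT matches in capitals. NUSAP1 had its CHR match 40 bases before the start and CCAAT matches at 249, 105 and 64 bases before it, ESPL1 had them at 31 and 48 bases, and TACC3, a spindle gene that fell by 1.32 ± 0.33, held no match in this window.
NUSAP1, chr15:41332631-41332880, plus strand: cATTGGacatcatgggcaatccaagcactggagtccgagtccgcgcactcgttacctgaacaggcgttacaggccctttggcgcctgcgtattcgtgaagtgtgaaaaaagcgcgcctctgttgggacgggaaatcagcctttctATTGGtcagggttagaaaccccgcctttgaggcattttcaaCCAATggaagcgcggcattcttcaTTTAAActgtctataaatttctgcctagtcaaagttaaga
ESPL1, chr12:53268049-53268298, plus strand: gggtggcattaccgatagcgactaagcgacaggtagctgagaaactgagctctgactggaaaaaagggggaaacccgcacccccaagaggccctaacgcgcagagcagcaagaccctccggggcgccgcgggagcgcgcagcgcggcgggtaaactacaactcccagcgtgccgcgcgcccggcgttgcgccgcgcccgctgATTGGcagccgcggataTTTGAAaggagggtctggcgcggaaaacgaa
TACC3, chr4:1720381-1720630, plus strand: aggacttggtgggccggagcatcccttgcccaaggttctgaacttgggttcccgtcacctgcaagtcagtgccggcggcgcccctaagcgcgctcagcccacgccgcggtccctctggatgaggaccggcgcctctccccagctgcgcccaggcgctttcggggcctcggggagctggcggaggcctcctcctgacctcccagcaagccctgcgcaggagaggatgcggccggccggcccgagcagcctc

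Another motif was searched for the replication genes. The E2F element, searched as TTTGGCGC, TTTCGCGC or TTTCCCGC on either strand, stood in 17 of 38 promoters of the DNA replication list (44.7%), against 6.67% of the mitosis promoters, 4.53% of tested genes and 2.79% of all promoters. Its matches shared bases with a CHR match in 0 and with a CCAAT match in 5 of all promoters. Among all fallen genes it stood in 9.89% and among risen genes in 3%, while the CHR stood in 24.4% of fallen and 13% of risen genes. The promoter of CDT1, the licensing factor that fell by 1.23, is given as an example chosen after the values were seen because it holds a match, 35 bases before the start and in capitals.
CDT1, chr16:88803539-88803788, plus strand: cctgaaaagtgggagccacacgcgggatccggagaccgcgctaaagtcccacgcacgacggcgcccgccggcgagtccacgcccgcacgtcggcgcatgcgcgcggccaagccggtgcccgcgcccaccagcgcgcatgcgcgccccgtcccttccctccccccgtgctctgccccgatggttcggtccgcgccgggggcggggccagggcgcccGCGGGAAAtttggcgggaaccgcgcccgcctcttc

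Replication-dependent histone genes, which are transcribed in S phase and whose mRNAs end in a stem loop, had the lowest median of the lists. Of 56 tested, 52 fell (92.9%, against 14.5% over all genes tested) and 0 rose, with a median of -1.35 on the log2 scale. The linker histone gene H1-3 (chromosome 6, 26234212 to 26234987) was at 78.4, 71.8 and 88.1 CPM in treated and 288, 276 and 266 CPM in control libraries. The groups lay far apart, and H1-3 fell by 1.80 ± 0.07 (edgeR adjusted p = 9.2e-10). H2BC10 was at 14.2, 11.8 and 20.01 CPM against 51.4, 54.4 and 52.5 CPM, and fell by 1.79 ± 0.15. H3C14 had the lowest fitted value of the list at -2.98 ± 0.61, with 0 counts in B. chinense replicate 3 and 9.72 and 19.5 CPM in the other treated libraries against 59.4, 70.4 and 112 CPM. Many histone genes are near-identical in sequence, so the counts of a single one of them are uncertain, that of H3C14 included. The 4 members that did not pass the test were H2AC19, H2AC18, H2BC7 and H3C6, at -1.83, -1.11, -0.85 and -0.44. A CCAAT box stood in 43 of 51 histone promoters (84.3%), against 36.6% of tested genes. The CHR stood in 21 of the 51 (41.2%, against 16.2%) and the E2F element in 12 (23.5%, against 4.53%).

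Genes that repair DNA by recombination or through the Fanconi anaemia pathway fell as well, 29 of 36 tested (80.6%) and 0 higher. Their median was -0.90. Over all genes tested 14.5% fell. FANCD2 fell by 1.41, the nuclease gene EXO1 by 1.26 and BRCA1 by 0.97. The E2F element stood in 5 of 32 promoters of this list (15.6%), against 4.53% of tested genes. Of 16 genes that supply deoxynucleotides and pyrimidines, 9 fell (56.2%) and 0 rose (median -0.34). RRM1 and TK1 each fell by 0.95, while RRM2, the small subunit of ribonucleotide reductase, was at 61.9, 73.1 and 162 CPM against 165, 83.1 and 122 CPM and its groups overlapped. In the list for chromatin silencing and the nuclear lamina 17 of 21 fell (81%, median -0.64). LMNB1, which encodes lamin B1, was at 68.9, 70.6 and 72.5 CPM against 140, 144 and 141 CPM and fell by 1.0 ± 0.07. The Polycomb methyltransferase gene EZH2 fell by 0.93, a call lost under 2 of 15 alternatives, and the DNA methyltransferase gene DNMT3B by 1.5, while DNMT1 stood at -0.66 ± 0.24 (edgeR adjusted p = 0.055).

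**Figure D2:**
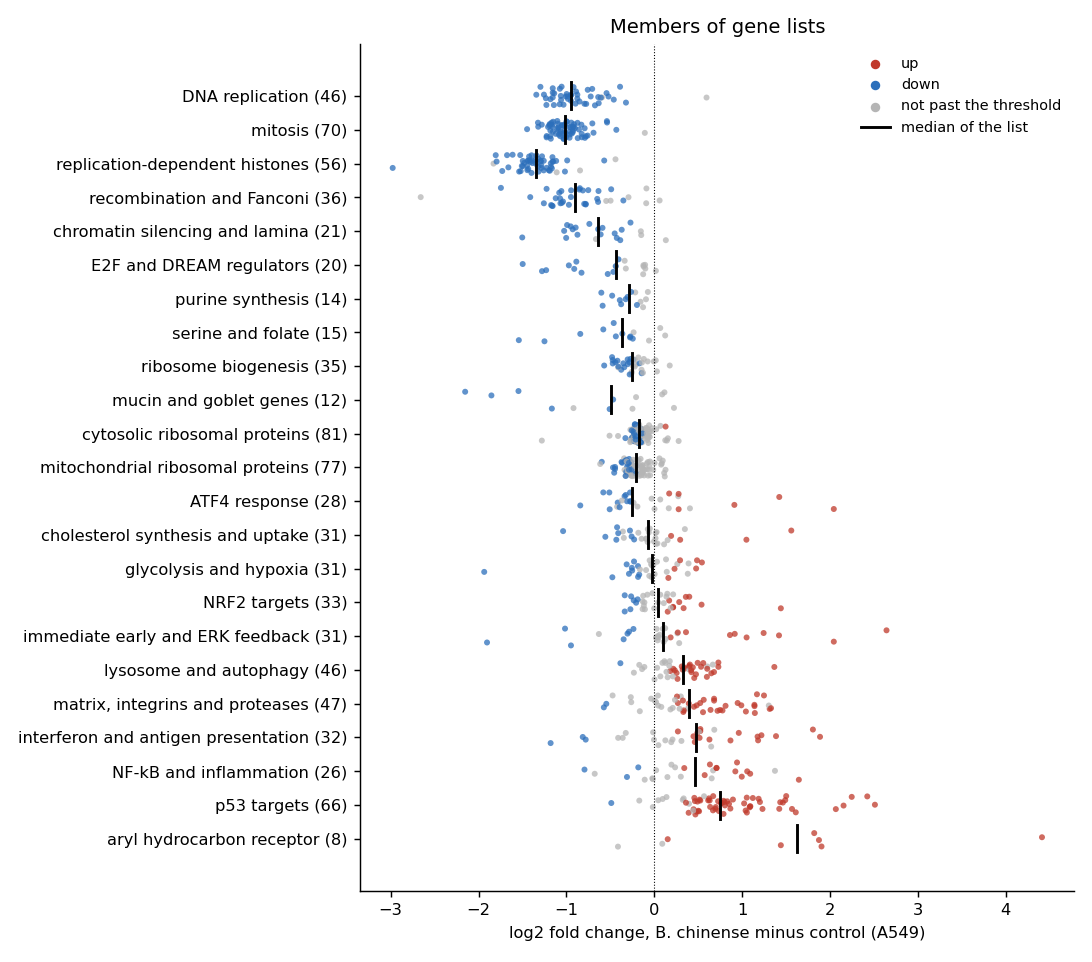
Log2 fold change of B. chinense over control in A549 cells for the members of gene lists, with 1 point per tested gene (number of tested genes in brackets), risen and fallen genes coloured and the list median as a black line. The DNA replication, mitosis and histone lists lie almost wholly to the left of 0 with medians of -0.95, -1.02 and -1.35, and the p53 targets lie to the right with a median of 0.75.

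Known targets of p53 rose together. Of 66 tested, 55 rose and 1 fell, with a median of 0.75, against 13.8% risen over all genes tested. The p53 antagonist MDM2 (chromosome 12, 68808177 to 68845544) was at 915, 831 and 777 CPM in treated and 274, 280 and 272 CPM in control libraries and rose by 1.61 ± 0.06. TP53INP1 (chromosome 8), a p53 cofactor that is also a target, had the largest rise of the list at 2.51 ± 0.10, with 63.1, 65.0 and 58.4 CPM against 11.96, 9.81 and 11.1 CPM. The phosphatase PPM1D, which dampens p53, did not pass at -0.02 ± 0.31.

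All 8 tested p53 targets for arrest of the cell cycle rose, with a median of 1.43. After CDKN1A the largest rise was that of BTG2 (chromosome 1, 203305491 to 203309602), an antiproliferative factor that acts on mRNA decay, which was at 65.1, 61.0 and 60.3 CPM in treated and 14.7, 14.7 and 15.0 CPM in control libraries. SESN1, SESN2 and GADD45A, stress sensors that slow growth, rose by 1.5, 1.42 and 1.43. Of 14 targets for cell death 13 rose, with a median of 1.03. SPATA18, which acts on damaged mitochondria, was at 22.8, 22.7 and 27.2 CPM against 5.92, 3.92 and 5.49 CPM and rose by 2.25 ± 0.15. BBC3 (chromosome 19, 47220822 to 47232766), which encodes the BH3-only death protein PUMA, was at 15.5, 17.1 and 17.8 CPM against 4.66, 4.12 and 2.60 CPM and rose by 2.15 ± 0.18. TNFRSF10B, the TRAIL receptor DR5, rose by 1.05 and FAS by 0.87, and PMAIP1, which encodes NOXA, stood at 0.32 ± 0.13 without passing.

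The remaining p53 targets followed the same direction. Of 7 for DNA repair and nucleotide supply 6 rose, among them RRM2B at 1.19, XPC at 0.79 and DDB2 at 0.63. Of 9 for metabolism and redox balance 8 rose, with FDXR, the mitochondrial ferredoxin reductase, at 1.49 and TIGAR at 1.09. All 7 secreted and membrane products rose, with the stress cytokine GDF15 (chromosome 19, 18374731 to 18389176) at 171, 207 and 218 CPM against 67.4, 71.3 and 62.2 CPM. The target that fell was PTP4A1, a phosphatase, at -0.49 ± 0.12. A p53 half-site, searched on either strand, stood in 6 of 52 promoters of the list (11.5%) and in 5.49% of tested genes, and the windows of CDKN1A, SPATA18 and BBC3 held no match.

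**Figure D3:**
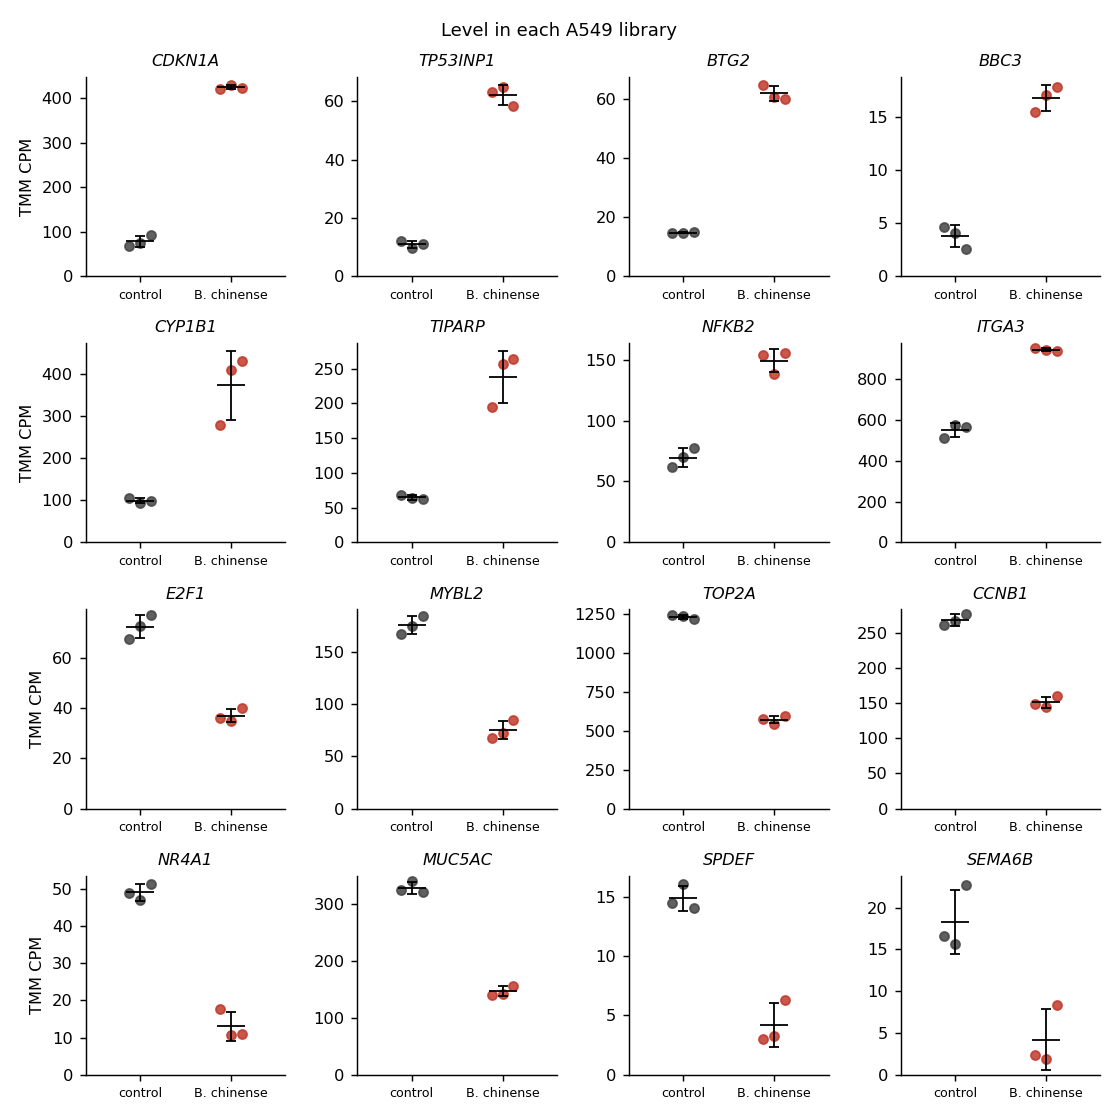
Level of 16 genes in the 3 control and 3 B. chinense libraries of A549 cells in TMM CPM (axes start at 0), with 1 point per library and a line at the mean. CDKN1A lies at 421 to 430 CPM in treated against 68.2 to 92.9 CPM in control libraries, and TOP2A at 545 to 593 against 1215 to 1241 CPM.

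Of 39 genes for the machinery of cell death, some of them p53 targets too, 11 rose (28.2%, against 13.8% over all genes tested) and 4 fell (10.3%, against 14.5%), with a median of 0.22. The survival genes BCL2L1, at 0.49 ± 0.04, and MCL1, at 0.27 ± 0.05, rose, and so did the effector BAX at 0.79 and the inhibitor of apoptosis BIRC3 at 0.94. BIRC3, also an NF-kB target, was at 204, 188 and 206 CPM in treated and 103, 101 and 107 CPM in control libraries. BCL2L11, which encodes the BH3-only protein BIM, fell by 0.60.

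Genes of NF-kB signalling were raised in part, 11 of 26 (42.3%) with 3 lower (11.5%) and a median of 0.46. The shares over all genes tested were 13.8% and 14.5%. The noncanonical subunit genes rose, NFKB2 (chromosome 10, 102394110 to 102402524) by 1.09 ± 0.08 with 154, 138 and 155 CPM against 61.8, 69.9 and 77.3 CPM, and RELB by 1.0. The feedback inhibitor NFKBIA rose by 0.63, while TNFAIP3, another, passed at 0.92 but lost its call under 6 of 15 alternatives. The chemokine CXCL8 rose by 1.65 ± 0.44 at a low level, with 3.87, 4 and 2.80 CPM against 0.38, 2.06 and 0.87 CPM. IL11 fell by 0.79 and PTGS2, the inducible cyclooxygenase, by 0.31.

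Immediate early genes and feedback inhibitors of ERK, the kinase at the end of the RAS pathway, went in both directions. Of 31 tested, 10 rose (32.3%) and 7 fell (22.6%), against 13.8% and 14.5% over all genes tested. Their median was 0.10. FOSL1, an AP-1 subunit, rose by 1.05, JUN by 0.86 and ATF3 by 2.04, and the ERK phosphatase DUSP6 rose by 1.25 ± 0.15. The orphan receptor NR4A1, itself an immediate early gene, fell by 1.90 ± 0.18, with 17.6, 10.6 and 10.9 CPM in treated and 48.7, 46.9 and 51.4 CPM in control libraries, and FOS fell by 0.95. MYC fell by 0.24 ± 0.07, a call lost under 4 of 15 alternatives. Of 10 genes of the EGF receptor family and its ligands, 5 rose (50%) and 1 fell (10%), with a median of 0.59. The ligands HBEGF, TGFA and EREG rose by 1.24, 1.01 and 0.67, EGFR rose by 0.37 ± 0.05, and ERBB3, the receptor with an impaired kinase, fell by 1.43 ± 0.18.

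Genes of the extracellular matrix, integrins and proteases rose more often than they fell. Of 47 tested, 28 rose (59.6%) and 2 fell (4.26%), with a median of 0.39. The laminin chain gene LAMB3 rose by 1.31. The protease inhibitor SERPINE2 rose by 1.33 ± 0.05, the urokinase gene PLAU by 1.15 ± 0.06, and the collagen receptor subunit ITGA2 by 1.17. Of 44 genes for TGF-beta and YAP signalling 15 rose (34.1%) and 5 fell (11.4%), with a median of 0.13. Over all genes tested 13.8% rose and 14.5% fell, so the fallen share was near that of all genes. CCN2, a YAP target, rose by 0.92 ± 0.14. CDH1, which encodes E-cadherin, was at 57.8, 50.8 and 50.02 CPM in treated and 95.3, 87.6 and 84.2 CPM in control libraries and fell by 0.75 ± 0.12. FN1 stood at -0.06 ± 0.13 and SNAI2 at 1.75 ± 0.78 with overlapping groups, neither past the threshold.

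The aryl hydrocarbon receptor (AhR) is a ligand-activated factor that senses planar aromatic compounds and induces cytochrome P450 genes. Of its 8 listed genes 6 rose (75%, against 13.8% over all genes tested) and 0 fell, with a median of 1.63. CYP1B1 (chromosome 2, 38066973 to 38109902) was at 279, 408 and 430 CPM in treated and 106, 94.7 and 97.6 CPM in control libraries, and rose by 1.90 ± 0.14. CYP1A1 (chromosome 15, 74719542 to 74725536) had the largest fold change at 4.41 ± 0.51 from a low level, with 3.54, 6.16 and 11.5 CPM against 0.25, 0.49 and 0.19 CPM. The control value rests on 2 to 5 counts per library. The repressor AHRR rose by 1.82 ± 0.19 and TIPARP, the ADP-ribosyltransferase that also restrains the receptor, by 1.88 ± 0.11, with 195, 256 and 263 CPM against 68.6, 64.0 and 62.3 CPM. For CYP1A1, CYP1B1 and TIPARP the lowest treated library was B. chinense replicate 1, still above every control library.

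The aldehyde dehydrogenase ALDH3A1, a target of both AhR and NRF2, was at 3440, 3566 and 3696 CPM in treated and 1321, 1310 and 1311 CPM in control libraries and rose by 1.44 ± 0.07. NRF2 is the oxidative stress factor that is constitutively active in A549 cells, and its targets were split. Of 33 in all 10 rose (30.3%, against 13.8% over all genes tested) and 7 fell (21.2%, against 14.5%), with a median of 0.05 that turned to -0.003 without control replicate 3. The transporter gene ABCC3 rose by 0.54 ± 0.13 and the aldose reductase gene AKR1B1 by 0.40 ± 0.07. NQO1 rose by 0.15 ± 0.03, GCLM was at 311, 320 and 307 CPM against 327, 317 and 308 CPM, and AKR1B10 stood at -0.08 ± 0.07.

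More lipid genes were called as fallen than as risen. Of 31 genes for cholesterol synthesis, uptake and efflux 4 rose (12.9%) and 8 fell (25.8%), with a median of -0.07. The risen share was near the 13.8% over all genes tested, and the fallen share compares with 14.5%. The exporter ABCA1 rose by 1.56 ± 0.10, with 154, 132 and 117 CPM against 48.4, 43.6 and 45.1 CPM. Of 18 genes for fatty acid synthesis 4 rose (22.2%) and 8 fell (44.4%), with a median of -0.13. SREBF1, their main factor, fell by 0.78 ± 0.08, SCD by 0.57 and FASN by 0.29, while ACSS2 rose by 0.70.

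In the ATF4 list, the arm that answers shortage of amino acids, 6 of 28 rose (21.4%) and 12 fell (42.9%), with a median of -0.25. These shares compare with 13.8% and 14.5% over all genes tested. ATF4 at -0.51, MTHFD2 at -0.84 ± 0.10 and ASNS at -0.51 ± 0.08 fell, and SESN2 and STC2, at 1.42 and 0.91, rose. DDIT3, which encodes CHOP, was at 6.74, 5.62 and 5.59 CPM against 4.66, 4.32 and 5.87 CPM. Of 24 genes for protein folding in the endoplasmic reticulum 5 rose and 4 fell (median 0.09), shares of 20.8% and 16.7% that lie near the 13.8% and 14.5% over all genes tested, with the chaperone HSPA5 up by 0.16 ± 0.04 and XBP1 down by 0.66 ± 0.08. Of 15 heat shock genes 2 rose (13.3%) and 7 fell (46.7%), with a median of -0.15, and HSPB8, a small chaperone, rose by 1.43 ± 0.15.

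Of 46 lysosome and autophagy genes 27 rose (58.7%, against 13.8% over all genes tested), 1 fell and 18 did not pass the test, with a median of 0.33. SQSTM1 (chromosome 5, 179806398 to 179838078), the autophagy receptor p62, was at 1322, 1416 and 1339 CPM in treated and 833, 843 and 782 CPM in control libraries and rose by 0.73 ± 0.05. The protease gene CTSD rose by 0.34 ± 0.04 and WIPI1, which acts early in autophagosome formation, by 1.37 ± 0.16. NPC1, the cholesterol transporter of the lysosome, was the member that fell, by 0.39. Of 32 interferon and antigen presentation genes 16 rose (50%) and 3 fell (9.38%, against 14.5% over all genes tested), with a median of 0.48. B2M, the light chain of MHC class I, rose by 0.46 ± 0.06, and the peptide transporter TAP1 was at 56.9, 59.0 and 60.3 CPM against 11.2, 21.7 and 33.4 CPM and rose by 1.39 ± 0.23. TAP1 lies in the MHC region of chromosome 6, whose genes have copies on alternate haplotypes among which estimated counts can be divided. OAS1 and OAS3, antiviral enzymes, fell by 1.18 and 0.78.

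Lists for growth and protein synthesis had medians between -0.36 and -0.18, and many of their members did not pass the test. The shares over all genes tested were 13.8% risen and 14.5% fallen. Of 35 ribosome biogenesis genes 18 fell and 0 rose (median -0.26), among them NCL at -0.57 ± 0.14 and NOP56 at -0.48 ± 0.11. Of 81 cytosolic ribosomal protein genes 26 fell and 1 rose (median -0.18), and of 77 mitochondrial ones 21 fell and 0 rose (median -0.21). With upper quartile normalization 11 of the cytosolic ones fell, a share near the 14.5% over all genes tested, and 14 to 16 without B. chinense replicate 1 or 2 or control replicate 2, and 12 of the mitochondrial ones fell without B. chinense replicate 1. RPL24 fell by 0.33 ± 0.09 and MRPL1 by 0.60 ± 0.18, the latter a call lost under 4 of 15 alternatives. For purine synthesis 9 of 14 fell (median -0.28), led by PRPS2 at -0.60 and PAICS at -0.59 ± 0.04, and for serine and folate metabolism 10 of 15 fell (median -0.36). Of 20 cytosolic tRNA synthetase genes 10 fell and 2 rose (median -0.18), and of 36 proteasome subunits 16 fell and 2 rose (median -0.20). The 2 risen proteasome genes were PSMB8 at 1.22 ± 0.40 and PSMB10 at 1.91 ± 0.63, which encode subunits of the immunoproteasome and had low counts. Respiratory chain genes stood near the median of all genes, with 6 fallen and 0 risen of 79 nuclear ones (median -0.09) and 1 risen of 13 mitochondrial ones, MT-CO1 at 0.21 ± 0.06, whose call was also lost under 4. The proteasome count was 10 fallen without control replicate 2, and the nuclear respiratory chain count was 2 fallen without B. chinense replicate 1.

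Mucin and goblet cell genes, which A549 cells express in part, fell in 6 of 12 cases with 0 higher (median -0.49). That share of 50% compares with 14.5% over all genes tested. MUC5AC (chromosome 11, 1157953 to 1201138), the gel-forming airway mucin, was at 140, 142 and 156 CPM in treated and 323, 339 and 321 CPM in control libraries and fell by 1.17 ± 0.06. MUC5B (chromosome 11, 1223066 to 1262172) fell by 1.55 ± 0.14, with 85.3, 57.8 and 84.7 CPM against 234, 236 and 193 CPM. Their factor SPDEF fell by 1.85 ± 0.25, with 2.98, 3.24 and 6.33 CPM against 14.5, 16.1 and 14.05 CPM. In the list for glycolysis and hypoxia 6 of 31 rose (19.4%) and 10 fell (32.3%), against 13.8% and 14.5% over all genes tested. Its median of -0.03 turned to 0.02 under upper quartile normalization. SLC2A1, the glucose transporter, rose by 0.48 ± 0.12, and CA9, a carbonic anhydrase of the hypoxia response, fell by 1.94 ± 0.34 at few counts.

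Ranked by fold change among changed genes that averaged 50 counts or more and whose groups did not overlap, the 10 largest rises were those of TP53INP1, CDKN1A, ACTA2, SPATA18, BBC3, CPA4, BTG2, SLCO2B1, CYP1B1 and LYNX1, from 2.51 down to 1.89. ACTA2 (chromosome 10, 88935074 to 88991339), the smooth muscle actin gene that lies next to FAS, was at 37.8, 43.0 and 35.4 CPM in treated and 8.06, 7.85 and 7.02 CPM in control libraries and rose by 2.35 ± 0.13. CPA4, a secreted carboxypeptidase, was at 15.1, 10.5 and 9.86 CPM against 2.64, 2.85 and 2.89 CPM. SLCO2B1, an uptake carrier for organic anions, rose by 1.91 ± 0.16. Of these 10 genes, 5 are in the p53 list and 1 in the AhR list.

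The 10 largest falls, from -2.98 to -1.80, included those of H3C14, SEMA6B, POC1B-GALNT4, NEB, NR4A1, MYOCD, SPDEF, TM4SF4 and TM4SF20. NEB, which encodes the muscle protein nebulin, was at 8.06, 7.89 and 9.86 CPM in treated and 37.7, 34.6 and 28.3 CPM in control libraries and fell by 1.97 ± 0.18. The tetraspanin-like genes TM4SF4, with 40.6, 34.4 and 37.5 CPM against 130, 136 and 128 CPM, and TM4SF20, with 28.3, 19.2 and 17.4 CPM against 84.7, 76.3 and 67.6 CPM, fell by 1.81 and 1.80. HNF4A, a factor of liver and gut epithelium, was at 48.4 to 53.8 CPM in treated and 110 to 123 CPM in control libraries. SEMA6B and POC1B-GALNT4, a readthrough gene whose counts are shared with its 2 parent genes, had falls of 2.18 ± 0.59 and 2.08 ± 0.59 that lost their calls under some settings.

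The study ranked transcription factors for this comparison separately from the fallen and from the risen genes of these same samples. The 20 ranked highest are thus not independent evidence of direction. Of these 20, 9 fell in their own mRNA, where 14.5% of all genes tested fell. MYBL2, E2F1, ZNF367, CENPA, FOXM1, TFDP1, E2F7 and PA2G4, from -1.23 to -0.38, had been ranked from fallen genes. TEAD1, at -0.14, had been ranked from risen genes. ZNF367 and CENPA fell by 0.96 each, the latter being the histone variant of the centromere. Among those ranked from risen genes, NFKB2 rose by 1.09 and ELK3, an ETS repressor, by 0.33 ± 0.06. SMAD3 at 0.15 and GLMP at 0.40, of the same ranking, also passed. The calls of SMAD3, GLMP and TEAD1 were lost under 7, 5 and 11 settings. PRMT3 and HMGA1, ranked from fallen genes, and GLIS2, FOXD1, CREB3L2, RARG and SNAI2, ranked from risen genes, did not pass the test.

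Some genes were at the limit of detection, 3 counts or less in every library of a group, in 11 cases for control and 16 for B. chinense. The 3 with the highest level in treated cells were TAS2R14, with 63 counts in 1 treated library and 0 in the rest, ATL1, with 21, 27 and 4 counts against 3, 2 and 1, and SPNS2, with 12, 26 and 10 counts against 2, 2 and 0. SPNS2, a sphingosine-1-phosphate transporter, thus had counts in every treated library. In the opposite direction KBTBD11 had 0 counts in all treated libraries and 101, 0 and 101 in control, ZNF519 had 0 against 48, 1 and 77, and STUM had 3, 2 and 0 against 88, 1 and 1. No fold change is given for these genes.

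The other herbs were compared with B. chinense directly. All 3 herbs share the same 3 control libraries, so only the difference between the treated groups was tested. Between B. chinense and P. chinensis, 172 genes were higher (1.28%) and 61 lower (0.453%) with B. chinense. These counts fell to 27 and 10 without P. chinensis replicate 3, to 33 and 12 without B. chinense replicate 3 and to 19 and 13 in a fit on the compared libraries alone. Histone genes were higher in 29 of 56 cases (median difference 0.53) and mitosis genes in 18 of 70 (median 0.30), against a median of 0.01 over all genes. So were 10 of 46 DNA replication genes (median 0.28), 10 of 33 NRF2 targets (median 0.16) and 4 of 8 AhR genes (median 0.28). In each of these lists 0 genes were lower. H4C9 was at 17.6, 14.1 and 16.9 CPM with B. chinense, 9.11, 8.95 and 6.98 CPM with P. chinensis and 42.8, 47.5 and 46.4 CPM in control, and differed by 0.96 ± 0.14 (edgeR adjusted p = 0.0064). MYBL2 was higher with B. chinense by 0.48 ± 0.10, and TOP2A by 0.47 ± 0.07. The call of MYBL2 was lost under 6 and that of H4C9 under 1 of 9 alternatives, and TOP2A was not recomputed under them.

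The 2 genes furthest below their level with P. chinensis were immediate early genes. FOSB, an AP-1 subunit, was at 3.20, 4.86 and 3.09 CPM with B. chinense, 17.2, 15.2 and 35.5 CPM with P. chinensis and 0.13, 0.79 and 0.77 CPM in control. The zinc finger factor EGR1 was at 3.87, 3.89 and 4.12 CPM, 14.8, 14.9 and 29.7 CPM and 1.39, 1.28 and 1.73 CPM in the same groups. Both groups of treated libraries lay above control and apart from each other, and the differences between the herbs were -2.60 ± 0.36 for FOSB and -2.33 ± 0.32 for EGR1 (edgeR adjusted p = 0.0038 for each), past the threshold under all 9 alternatives that were run. CXCL8 was lower than with P. chinensis by 1.55 ± 0.37 and DDIT3 by 1.33 ± 0.28, and each of these calls was lost under 7 of the 9. Among p53 targets, MDM2 was lower by 0.36 ± 0.05 and BTG2 by 0.31 ± 0.07, and CDKN1A did not pass at -0.11 ± 0.07. The differences of these p53 targets were not recomputed under the alternatives. CYP1B1 was higher with B. chinense by 0.72 ± 0.13, a call lost without B. chinense replicate 2 or 3, without P. chinensis replicate 3 or with the compared libraries alone, and TIPARP differed by 0.04 ± 0.11.

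Against P. umbellatus 3 genes were higher (0.0223%) and 4 lower (0.0297%), with 1005 genes at an unadjusted p below 0.05. The 3 higher genes were ID1, ID2 and ID3, which encode inhibitors of basic helix-loop-helix factors and are targets of BMP signalling. ID1 (chromosome 20, 31605283 to 31606515) was at 244, 239 and 233 CPM with B. chinense, 164, 142 and 154 CPM with P. umbellatus and 214, 208 and 207 CPM in control, a difference of 0.64 ± 0.05 between the herbs (edgeR adjusted p = 5.4e-05). ID2 was at 123, 122 and 140 CPM against 82.3, 66.1 and 85.6 CPM, and ID3 at 76.2, 79.9 and 79.9 CPM against 51.2, 46.6 and 50.6 CPM, a call lost under 1 of 9 alternatives. The lower genes were MUC5AC, CXCL5, CLMP and ITGA3. MUC5AC was at 262, 235 and 246 CPM with P. umbellatus, between its levels with B. chinense and in control, and differed by -0.76 ± 0.06 (edgeR adjusted p = 2.6e-05). The calls for CLMP and ITGA3 were lost under 8 and 5 of 9 alternatives. For DNA replication, mitosis and histone genes the median differences from P. umbellatus were -0.04, -0.03 and 0.03.

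**Figure D4:**
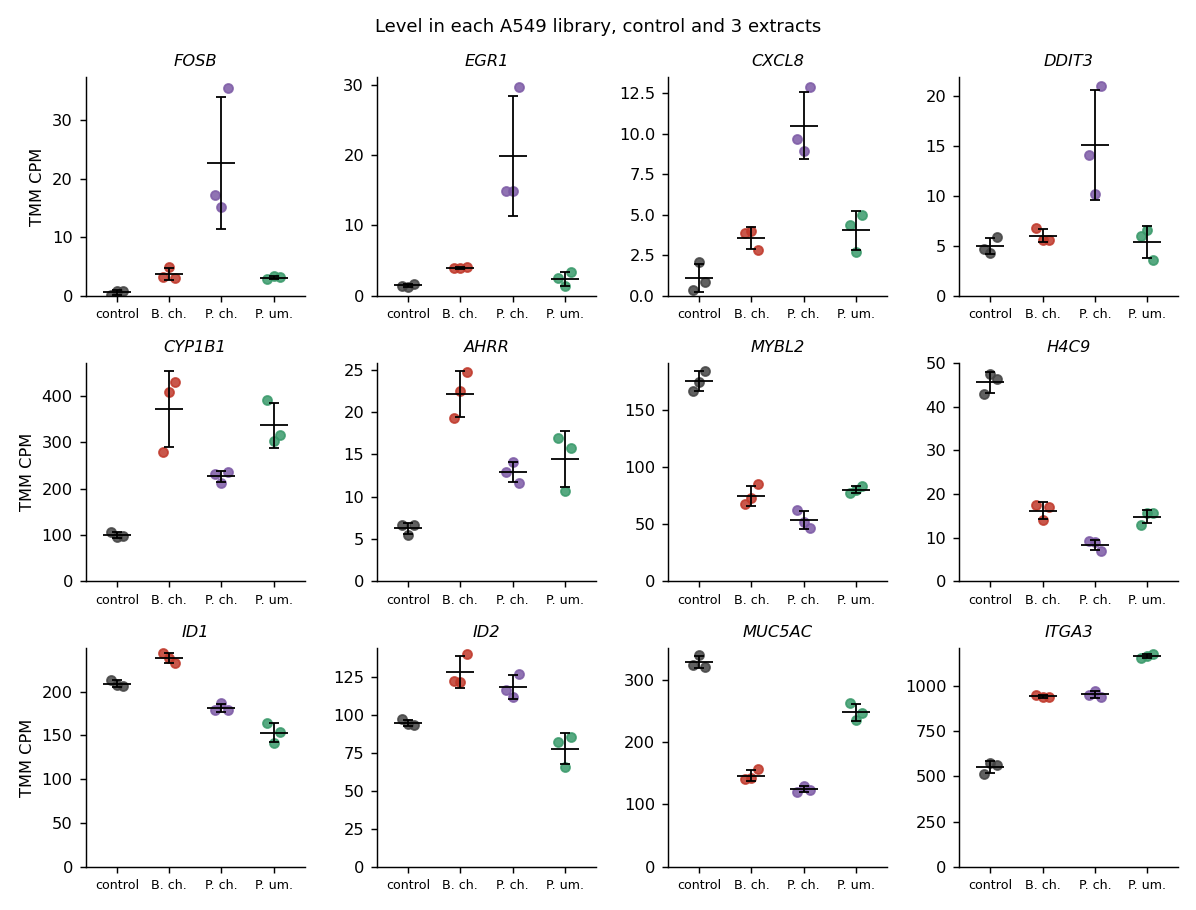
Level of 12 genes in the 12 A549 libraries in TMM CPM (axes start at 0), with 1 point per library and a line at the mean for control, B. chinense, P. chinensis and P. umbellatus. FOSB and EGR1 lie at 15.2 to 35.5 and 14.8 to 29.7 CPM with P. chinensis and below 5 CPM with B. chinense, and ID1 and ID2 are lower with P. umbellatus than in the other groups.

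In Huh7 cells the same extract changed few genes. Of the 12696 genes that passed the filter in both lines, 160 rose (1.26%) and 162 fell (1.28%) in Huh7. A test of the difference between the responses found 768 genes (6.05%) with a higher and 733 (5.77%) with a lower response in A549. Among mitosis genes 66 of 70 had a lower response in A549, and their median in Huh7 was -0.04. In the DNA replication list it was 37 of 46, with a median of -0.12 in Huh7, and among histone genes 33 of 55, with -0.43. TOP2A was at 550, 569 and 539 CPM in treated and 587, 611 and 600 CPM in control Huh7 cells, a change of -0.12 ± 0.09 that did not pass, and the difference from A549 was -0.96 ± 0.13 (edgeR adjusted p = 3.1e-05). Of 63 p53 targets tested in both lines, 45 had a higher response in A549, and the list's median in Huh7 was 0.03. MDM2 was at 283, 284 and 293 CPM in treated and 313, 308 and 304 CPM in control Huh7 cells and differed between the lines by 1.75 ± 0.10. CDKN1A was at 18.2, 17.8 and 17.4 CPM against 15.1, 10.7 and 12.7 CPM in Huh7, and differed by 2.0 ± 0.18. BTG2 rose in Huh7 too, by 0.54 ± 0.10, and more in A549 by 1.56 ± 0.15.

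Of the 8 AhR genes 3 rose and 1 fell in Huh7, with a median of 0.43. CYP1B1 rose by 1.46 ± 0.21 in Huh7, with 8.07, 7.81 and 6.13 CPM against 2.73, 2.24 and 2.86 CPM, and its responses in the lines were not shown to differ (0.47 ± 0.25, edgeR adjusted p = 0.26). CYP1A1 was at 286, 288 and 306 CPM in treated and 136, 129 and 137 CPM in control Huh7 cells and rose by 1.13 ± 0.14, and its response in A549 was higher by 3.28 ± 0.56. TIPARP rose by 0.71 ± 0.11 in Huh7. FOSB rose by 1.56 ± 0.28 in Huh7, with 8.38, 9.99 and 8.26 CPM against 3.09, 2.92 and 3.03 CPM, and ID2 by 0.57 ± 0.09. Of the groups that fell in Huh7, the ATF4 list had 10 of 28 lower with a median of -0.31, the fatty acid list 8 of 18 with -0.30, and the cholesterol list 7 of 31 with -0.27.

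**Figure D5:**
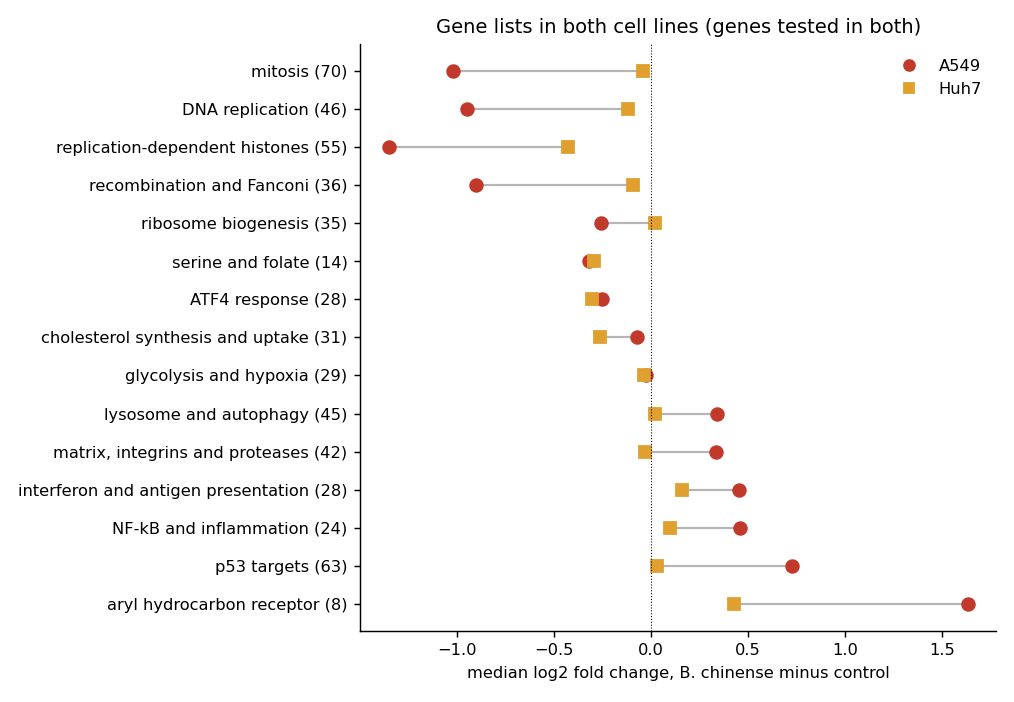
Median log2 fold change of B. chinense over control for gene lists in A549 (circles) and Huh7 (squares) over the genes tested in both lines (number in brackets). The mitosis and DNA replication lists lie near -1 in A549 and near 0 in Huh7, and the AhR list lies to the right of 0 in both.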

How the data were processed

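RNA was sequenced from 24 libraries, 3 for each of 8 groups. The authors ran FastQC on the reads and used kallisto with Ensembl transcripts of GRCh38.p13 to obtain estimated counts, of which they kept genes that code for protein and average above 5. The deposited estimated counts are whole numbers, unscaled for depth. How transcripts were summed per gene, rounded and counted by strand is not stated in the sources used here. Groups follow the labels, which do not say that replicates were separate cultures, so p-values measure the spread between these libraries, which may be technical.

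Counts were analysed in R 4.3.3. All 12 A549 libraries were normalized by TMM and fitted in 1 quasi-likelihood model of edgeR 4.0.16 with 1 coefficient for each group and a prior count of 0.125, over the 13461 genes with a mean above 5 in the 6 libraries compared. Tests were two-sided, with Benjamini-Hochberg adjustment over all genes tested and a threshold of 0.05. The SE of a log2 fold change was taken from its F statistic. An interaction term of a fit to all 24 libraries, on 12696 genes, gave the difference between cell lines, and CPM in Huh7 cells come from that fit. A gene at 3 counts or less in every library of a group was taken to be undetected there. The scripts were tested on simulated data.

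Named genes are the 10 largest rises and falls among changed genes that average 50 counts or more and do not overlap, key members and the 3 most changed members of each list, the study's 20 transcription factors, the 5 highest and 5 lowest differences of each other contrast, and 3 genes per direction at the limit of detection. Some of these genes are not reported here. List members named beside these were chosen after their values were seen. The members, lists and tests were chosen with earlier results of these data known. Gene positions are those of GENCODE on GRCh38, and promoters and their sequences those of RefSeq (GRCh38.p14). The alternatives were DESeq2 1.42.0, its size factors (RLE), upper quartile normalization, voom of limma 3.58.1 with quality weights, fits on the compared libraries alone, other filters on low counts, a minimum absolute log2 fold change of 1, a GC offset, the replicate number as a block, and leaving out each replicate.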

Additional observations from a re-analysis of the deposited data

Results flagged for a closer look

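The response to B. chinense differed between A549 and Huh7 cells, by the test of the difference itself, for 768 genes with a higher and 733 with a lower response in A549. Among the 5 genes with the highest differences on the log2 scale were SLC12A8 at 3.45, CYP1A1 at 3.28, FHL3 at 2.60 and NTN1 at 2.55. The other was MLKL, a gene of necroptosis, which was at 33.0, 39.1 and 27.5 CPM in treated and 36.8, 32.7 and 33.1 CPM in control A549 cells and at 3 counts or less in every treated Huh7 library, so that its fitted difference is no bound. SLC12A8, a cation chloride cotransporter gene, had 2.32, 2.59 and 0.44 CPM in treated and 0 to 0.49 CPM in control A549 cells, and its call was lost under 7 of 15 alternatives. FHL3, a LIM domain cofactor, was at 4.53, 7.03 and 8.53 CPM against 2.52, 3.43 and 0.58 CPM in A549 and at 9.64, 6.36 and 12.2 CPM against 16.4, 20.5 and 17.4 CPM in Huh7. NTN1, the guidance cue netrin 1, was at 26.2, 24.8 and 29.0 CPM against 35.5, 38.6 and 38.4 CPM in Huh7.

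The lowest differences were those of ASIC1 at -3.81, DAXX at -3.15, FGB at -2.41, SAMD11 at -2.29 and C11orf86 at -2.14. The call of ASIC1, an ion channel gene, was lost under 7 of 15 alternatives. DAXX, a histone chaperone gene in the MHC region, was at 0.22, 0.11 and 1.18 CPM in treated and 3.40, 2.85 and 2.98 CPM in control A549 cells, and at 40.5, 35.4 and 28.9 CPM against 20.1, 30.7 and 27.1 CPM in Huh7. FGB, the fibrinogen beta chain that hepatocytes secrete, was at 2.43, 0.76 and 1.47 CPM against 5.16, 5.69 and 7.89 CPM in A549 and at 255, 267 and 245 CPM against 193, 197 and 181 CPM in Huh7. SAMD11 was at 5.97, 8 and 6.91 CPM against 23.9, 20.8 and 22.4 CPM in A549.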

How the results depend on the processing

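Without one replicate, the risen genes numbered 1471 to 1662 and the fallen genes 1565 to 1772, the genes higher than with P. chinensis 27 to 146 and lower 10 to 51 (the fewest without P. chinensis replicate 3, and 33 and 12 without B. chinense replicate 3), those higher than with P. umbellatus 2 to 5 and lower 2 to 3, and those with a higher response in A549 than in Huh7 514 to 684 and a lower one 578 to 688. A minimum absolute log2 fold change of 1 left 349 risen and 270 fallen genes, 5 higher and 7 lower than with P. chinensis, 0 in each direction against P. umbellatus, and 223 higher and 163 lower in A549 than in Huh7. DESeq2 called 322 higher and 135 lower against P. chinensis and 10 and 61 against P. umbellatus. Fits on the compared libraries alone gave 19 and 13 against P. chinensis and 1229 genes lower in A549 than in Huh7. The number of a replicate did not pair the libraries, since deviations of same-numbered libraries correlated between -0.00753 and 0.0058, and with the replicate block the counts were 1737 risen and 1863 fallen, 93 higher and 31 lower against P. chinensis, 3 and 3 against P. umbellatus, and 693 and 664 between the lines. The risen and fallen counts stayed within 1.5 times their values under the other normalizations, filters, voom, the GC offset and DESeq2. No alternative reversed the direction of a called gene among the genes recomputed. Some list members named above were not recomputed. Of the gene values recomputed, 3457 kept direction and side of the threshold, 230 lost the call and 29 gained one. Another 29 changed direction, without passing the threshold in either fit. Among list medians 552 moved by less than the spread between the treated libraries and 63 by more. The cause of these shifts was not tested. Depth limits what can be said of genes under about 50 counts, where 1 library can decide a value.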

Other observations

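Some gene families outside the lists described above also had members that changed with B. chinense in A549 cells. Over all genes tested 13.8% rose and 14.5% fell. Of 26 semaphorin and plexin genes, which encode guidance cues and their receptors, 11 rose and 4 fell (median 0.17), with PLXNB3 at 2.51 ± 0.22, SEMA7A at 1.58 and PLXNA3 at 0.90 ± 0.15 risen and PLXNC1 at -1.68 fallen. The risen semaphorin and plexin genes numbered 6 without B. chinense replicate 1 or control replicate 2. Of 37 ABC transporter genes 10 rose (27%) and 2 fell (5.41%), with a median of 0.09, and ABCA12, a lipid carrier of epithelia, rose by 1.47 ± 0.15 with 30.9, 25.4 and 25.7 CPM in treated and 9.82, 9.52 and 10.4 CPM in control libraries. ABCA3, the lipid carrier of alveolar type II cells, rose by 0.90, at 102 to 127 CPM against 60.8 to 66.1 CPM.

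Among 13 tubulin genes 3 rose (23.1%) and 4 fell (30.8%), against 13.8% and 14.5% over all genes tested. Their median was -0.17. TUBA1A rose by 0.89 ± 0.07 and TUBB3, the neuronal beta tubulin, by 0.59 ± 0.06, while TUBA1B was at 1733, 1654 and 1748 CPM against 2849, 2749 and 2832 CPM and fell by 0.72 ± 0.06. Of 25 kinesin genes outside the mitosis list 7 rose (28%) and 8 fell (32%), with a median of -0.17. KIF22, which moves chromosomes, fell by 1.07 ± 0.13. Of 10 keratin genes 2 rose (20%) and 3 fell (30%). KRT19 rose by 1.51 ± 0.13, from 10.4, 16.2 and 14.05 CPM to 39.0, 39.9 and 37.7 CPM, and KRT81 fell by 0.47 ± 0.05. In the metallothionein list 1 of 5 rose (20%), the zinc exporter SLC30A1 at 0.23 ± 0.05.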
